A study of Mus musculus with 4 samples.

Results

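The enzymes of glycolysis and the testis forms that replace some of them in male germ cells were followed by ribosome profiling in sorted leptotene/zygotene spermatocytes of mice lacking *Eef1g*. The members were the somatic enzymes *Hk1*, *Aldoa*, *Tpi1*, *Gapdh*, *Pgk1*, *Eno1*, *Pkm* and *Ldha* and the testis forms *Pgk2* and *Ldhc*, chosen by gene symbol. Of these 10 genes, 7 had a row among the 11598 genes of the table, and *Pgk1*, *Pgk2* and *Eno1* were not analysed here. Ribosome-protected fragments (RPFs), the short pieces of mRNA that a translating ribosome shields from nuclease, had been sequenced from 2 control and 2 *Eef1g*-cKO libraries, all from testes at 12 dpp (days post partum). The labels give the control genotype as wild type. In *Eef1g*-cKO mice, *Stra8*-GFPCre, a recombinase driven by a gene that germ cells switch on before meiosis, removes part of the floxed *Eef1g* gene, which codes for a subunit of translation elongation factor eEF1. The floxed allele was made on C57BL/6J, and cells of both genotypes were sorted by their Hoechst fluorescence. The series states that the replicates are independent. How many mice went into a library, and whether the controls carried a floxed allele or the Cre, is not given in the sources used here.

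Glycolysis turns glucose into pyruvate in the cytosol, and lactate dehydrogenase interconverts pyruvate and lactate. Hexokinase (*Hk1*, *Hk2*) acts first on glucose, aldolase (*Aldoa*, *Aldoc*) splits the sugar phosphate into trioses, and triosephosphate isomerase (*Tpi1*) interconverts these. Glyceraldehyde-3-phosphate dehydrogenase (*Gapdh*), phosphoglycerate kinase (*Pgk1*, *Pgk2*), enolase (*Eno1*) and pyruvate kinase (*Pkm*) carry the trioses to pyruvate. Spermatocytes are fed by Sertoli cells with lactate, which they import and oxidise. The X-linked *Pgk1* is silenced in meiosis together with the rest of the X chromosome, and its autosomal retrogene *Pgk2* takes over later in spermatogenesis. *Ldhc* codes for the lactate dehydrogenase subunit found in spermatocytes and sperm, whereas *Ldha* is the widespread muscle-type subunit.

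Housekeeping glycolytic genes have many processed copies in the mouse genome, and an RPF is short, so the share of each coding sequence that an RPF-sized read could place at a single position was computed first. A window of 28 bases was moved along the longest annotated coding sequence, and each window was searched for exactly in GRCm38. All 1224 windows of *Pgk1* (100%) had a copy elsewhere, as did 94.3% for *Gapdh*, 90.5% for *Eno1*, 79.8% for *Pkm*, 64.1% for *Ldha*, 48.5% for *Aldoa* and 36.9% for *Tpi1*. For *Hk1*, *Ldhc* and *Pgk2* it was 0%. The median over the 11206 genes of the table with a coding sequence was also 0%, and the 90th percentile was 20.1%. Of coding genes with under 10% of their windows repeated, 58.2% had a row in the table, against 37.1% of those with 10 to 50% and 21.5% of those with more than 50%. How the authors treated reads with several positions is not given in the sources used here, so the levels of *Gapdh*, *Pkm*, *Ldha*, *Aldoa* and *Tpi1* are uncertain to the extent that their reads were dropped or split. *Pgk2* is not among the repeated genes, and the table held no gene with fewer than 10 reads over the 4 libraries.

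**Figure D1:**
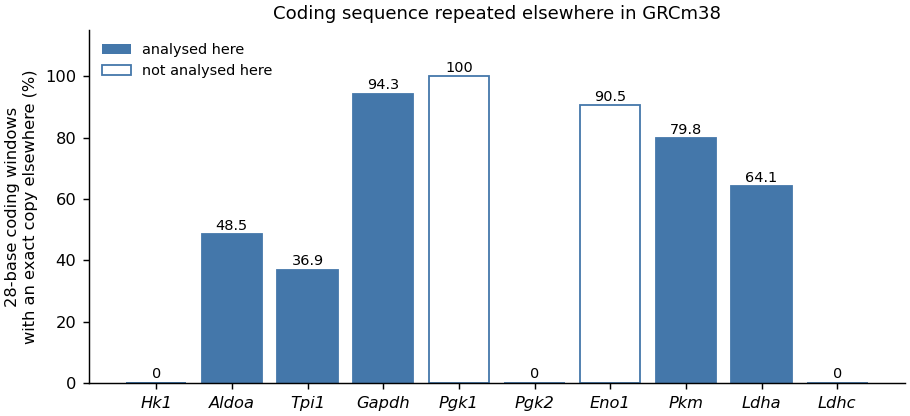
Percentage of 28-base windows of the coding sequence (vertical axis) that occur exactly at another position of GRCm38, for each of the 10 members. Filled bars are genes analysed here and open bars are genes not analysed here; *Pgk1*, *Gapdh* and *Eno1* lie above 90%, and *Hk1*, *Pgk2* and *Ldhc* stand at 0%.

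The following stretches of coding sequence, in the direction of the mRNA and read from GRCm38, show where reads can and cannot be told apart. For each somatic and testis pair, the closest aligned window within an exon is given, and capitals mark the bases that differ.
Ldha, chr7:46848976-46849003, plus strand: ttggcGgatgaGcttgcccttgttgacg
Ldhc, chr7:46866412-46866439, plus strand: ttggcTgatgaActtgcccttgttgacg
Pgk1, chrX:106202521-106202548, plus strand: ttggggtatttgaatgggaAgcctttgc
Pgk2, chr17:40207490-40207517, minus strand: ttggggtatttgaatgggaTgcctttgc
Over the aligned coding sequence *Ldha* and *Ldhc* were 73.9% identical, and *Pgk1* and *Pgk2* were 79.3% identical. Neither pair shared a 28-base window, and the windows above, with 2 and 1 differences, were the closest. The windows of *Ldha* and *Pgk1* shown here each had 3 further exact copies in the genome, whereas those of *Ldhc* and *Pgk2* had none. The most copied window of *Gapdh* and the first window of *Hk1* within an exon, which is found once, are the extremes of the set. The *Hk1* window lies at bases 28 to 55 of the longest annotated coding sequence. Whether other *Hk1* transcripts, somatic or testis, contain it was not examined.
Gapdh, chr6:125162917-125162944, minus strand, 136 copies elsewhere: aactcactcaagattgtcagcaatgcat
Hk1, chr10:62353078-62353105, minus strand, 0 copies elsewhere: gctgtagatgttgaaccaaaaatacgac

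The libraries differed in depth along with genotype. Reads counted on genes were 2479504 and 1384282 in control against 223906 and 407979 in *Eef1g*-cKO, and a gene had a median of 60 and 34 reads in control and of 5 and 8 in *Eef1g*-cKO. Levels are given as FPKM, which divides a gene's reads by its length in kilobases and by 1000000 reads counted on genes, with the reads behind them, which could be recovered from the table. With 0 reads, up to 3 reads per library are allowed, and such limits and all intervals below cover counting error only. The targeted gene *Eef1g* had 107 and 58 reads in control against 0 and 4 in *Eef1g*-cKO. Of its coding windows 95.9% were repeated elsewhere, so its level is uncertain in the same way. Its log2 fold change of −3.39 missed the limma threshold (adjusted p = 0.0731). On the recovered reads edgeR called it lower (−2.68, adjusted p = 0.0078) and DESeq2 did not (−2.77, adjusted p = 0.05003). All 8 leptotene and zygotene markers with a row were detected in every library, and 7 were higher and 1 lower in *Eef1g*-cKO. At the adjusted threshold limma called 4 of them higher and 1 lower. They summed to 1705 and 1391 FPKM in control against 3647 and 3159 FPKM in *Eef1g*-cKO. *Sycp3* alone gave 811 and 716 FPKM of the control sums and 2217 and 1778 FPKM of the *Eef1g*-cKO sums. Of 8 pachytene markers 5 had a row, of which 3 were higher and 2 lower in *Eef1g*-cKO. At the adjusted threshold limma called 1 of these higher, *Ccnb3*, and 0 lower, and by unadjusted p 1 higher and 1 lower. The 9 spermatogonial markers summed to 1517 and 1786 FPKM in control against 289 and 266 FPKM in *Eef1g*-cKO. *Uchl1* alone gave 1011 and 1138 FPKM of the control sums and 140 and 120 FPKM of the *Eef1g*-cKO sums. Of the 9, 5 were called lower (*Kit*, *Uchl1*, *Zbtb16*, *Dmrt1* and *Sohlh1*), and *Gfra1* and *Nanos3* had 0 reads in *Eef1g*-cKO replicate 1. *Sohlh2* was at 48.8 and 48.6 FPKM in control against 41.8 and 39.7 FPKM in *Eef1g*-cKO (log2 fold change −0.25, adjusted p = 0.461 by limma). Of the 13 Sertoli cell markers, 11 had a row and summed to 665 and 178 FPKM in control against 167 and 107 FPKM in *Eef1g*-cKO. At the adjusted threshold limma called 0 of them, and by unadjusted p 3 were lower (*Gata4*, *Cldn11* and *Vim*). By edgeR 3 were lower (*Cldn11*, *Clu* and *Vim*), and *Gata4* was not tested. *Gata4* had 0 reads in both *Eef1g*-cKO libraries. Control replicate 1 stood apart in these genes, with 2052 reads of *Clu* against 241 in control replicate 2. In these bulk libraries, fewer cells of a type and fewer RPFs per cell cannot be told apart.

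In control spermatocytes the members ranked by mean FPKM as *Aldoa* (44.4), *Pkm* (36.2), *Hk1* (17.7), *Ldhc* (13.6), *Tpi1* (9.25), *Gapdh* (6.26) and *Ldha* (1.94). The libraries of neighbours in this order overlapped for *Aldoa* and *Pkm*, for *Hk1* and *Ldhc* and for *Ldhc* and *Tpi1*, and were separate for the other neighbours. In *Eef1g*-cKO spermatocytes *Ldhc* came first at 25.0 FPKM, with both libraries above both of *Pkm* (15.6 FPKM), which in turn was above *Aldoa* (5.93 FPKM). *Tpi1* (2.93 FPKM) and *Ldha* (1.16 FPKM) followed, and *Gapdh* and *Hk1* stood at 0 reads. Together the 7 genes took 311 and 290 reads per 1000000 in control and 93.8 and 88.2 reads per 1000000 in *Eef1g*-cKO.

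**Figure D2:**
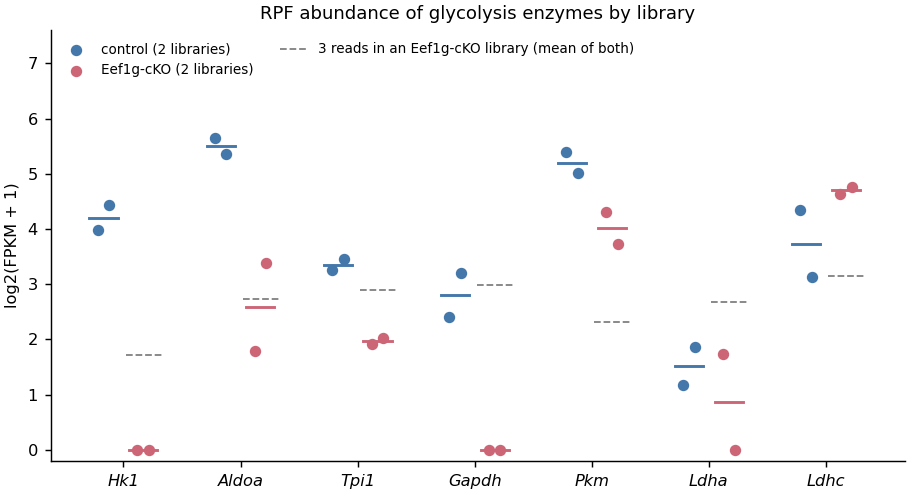
RPF abundance of the 7 members as log2(FPKM + 1) in each library, blue for the 2 control and red for the 2 *Eef1g*-cKO libraries, with short lines at the group means and a dashed line at the level that 3 reads would give in the *Eef1g*-cKO libraries. *Hk1* and *Gapdh* stand at 0 in both *Eef1g*-cKO libraries, and *Ldhc* is the member whose *Eef1g*-cKO libraries both lie above control.

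Of the 7 genes, all of which passed the filter of a mean of 1 FPKM, 3 fell in *Eef1g*-cKO at an adjusted p under 0.05 with an absolute log2 fold change above 1 (*Hk1*, *Aldoa* and *Gapdh*), and none rose. Over all 10475 genes tested by limma, 4.97% fell and 2.87% rose by this rule. By unadjusted p with the same fold, 5 fell, with *Tpi1* and *Pkm* added, against 16.3% of all genes, and 0 rose against 7.32%. Both *Eef1g*-cKO libraries lay below both control libraries for 5 members (37.7% of all genes) and above them for 1, *Ldhc* (24.6% of all genes). The median log2 fold change of the 7 was −1.38, beside −0.23 over all genes, and −1.18 with the 2 genes at 0 reads in *Eef1g*-cKO set to the bound that 3 reads per library allow. Centring each library on its median moved the all-gene median by 0.21 and turned the split of all genes from 301 higher and 521 lower to 521 higher and 383 lower. The members' median was then −1.17, and 3 were again called lower. By unadjusted p 4 members were then lower, beside 1346 of all 10475 genes. Without control replicate 1 or without control replicate 2, limma called no gene of the 10475 at the adjusted threshold. By unadjusted p it then called 548 higher and 1013 lower without control replicate 1 and 479 higher and 795 lower without control replicate 2, with 2 members among the lower in either case. With all libraries thinned to the reads of the shallowest, the members' median log2 fold change was −1.62, beside −0.18 over all genes, with −2.74 for *Aldoa* and −1.32 for *Pkm*, while 0 genes passed the adjusted threshold in limma and 3 members passed by unadjusted p. Whether the lower spermatogonial or the higher leptotene and zygotene marker sum of *Eef1g*-cKO has a part in the members' fall was not tested.

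*Hk1*, the hexokinase of most tissues (chromosome 10, 62268855 to 62379920, RefSeq positions on GRCm38.p6), had 165 and 129 reads in control, or 14.8 and 20.7 FPKM. It had 0 reads in both *Eef1g*-cKO libraries. The groups did not overlap, and against 3 reads per library *Hk1* was at least 7.70-fold lower in *Eef1g*-cKO (adjusted p = 0.0225 by limma). None of its windows is repeated in the genome. Its reads were counted per gene, so transcript forms of *Hk1* could not be told apart. The second hexokinase *Hk2* went the same way, with 353 and 212 reads in control against 1 and 5 in *Eef1g*-cKO, a log2 fold change of −3.52 ± 0.44 (SE, adjusted p = 0.0271). Together *Hk1* and *Hk2* had 209 and 246 reads per 1000000 in control and 4.47 and 12.3 in *Eef1g*-cKO. *Gpi1*, whose glucose-6-phosphate isomerase acts next, had 430 and 362 reads in control against 6 and 10 in *Eef1g*-cKO (log2 fold change −2.92 ± 0.30, adjusted p = 0.0216), with 53.6% of its windows repeated. *Hk3*, a further hexokinase gene, had 10 reads in control replicate 1 and 0 in the other libraries and was not tested, and *Adpgk*, an ADP-dependent glucokinase, was at 22.4 and 26.0 FPKM in control against 21.7 and 21.8 FPKM in *Eef1g*-cKO (log2 fold change −0.14, adjusted p = 0.734). The phosphofructokinase genes, which code for the committed step, did not pass the test. Their log2 fold changes were −1.22 for *Pfkl*, 0.36 for *Pfkm* and −1.49 for *Pfkp*, with adjusted p = 0.236, 0.683 and 0.171. *Pfkl* had 28 and 10 reads in control against 1 and 0 in *Eef1g*-cKO, and *Pfkp* 15 and 24 against 0 and 1. Their ratios of pooled reads per 1000000, *Eef1g*-cKO over control, had exact 95% intervals of 0.00397 to 0.952 and of 0.00387 to 0.927. The failed test therefore does not show that either was unchanged.

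*Aldoa*, the aldolase of muscle and most other tissues (chromosome 7, 126795234 to 126800994), was the most abundant member in control, with 221 and 101 reads (48.9 and 40.0 FPKM). It had 1 and 7 reads in *Eef1g*-cKO (2.45 and 9.41 FPKM), below both control libraries. Its log2 fold change was −2.92 ± 0.55 (SE, adjusted p = 0.0403), and leaving out *Eef1g*-cKO replicate 1 gave −2.12 and leaving out replicate 2 gave −3.71. With no filter on low values it missed the threshold (adjusted p = 0.0541). The ratio of pooled reads per 1000000, *Eef1g*-cKO over control, was 0.152 with an exact 95% interval of 0.0650 to 0.303. *Aldoc*, the brain-type paralog with no repeated window, had 121 and 65 reads in control against 0 and 3 in *Eef1g*-cKO. Its log2 fold change of −3.66 ± 0.80 missed the adjusted threshold in limma (adjusted p = 0.0501). On the recovered reads, edgeR (−3.25, adjusted p = 0.00228) and DESeq2 (−3.33, adjusted p = 0.0223) both called it lower. Over all genes, edgeR called 904 of 8056 lower and DESeq2 451 of 11598.

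*Tpi1* (chromosome 6, 124810586 to 124814158) had 34 and 22 reads in control, or 8.56 and 9.93 FPKM, and 1 and 2 reads in *Eef1g*-cKO, or 2.79 and 3.06 FPKM. The groups were separate, but the change rested on 3 reads in *Eef1g*-cKO (log2 fold change −1.38 ± 0.41, adjusted p = 0.0871), and the interval of the read ratio, 0.0656 to 1.01, reached equality. *Gapdh* (chromosome 6, 125161852 to 125166467) had 16 and 17 reads in control, or 4.31 and 8.21 FPKM, and 0 in both *Eef1g*-cKO libraries. It passed the limma threshold (adjusted p = 0.0405). However, 3 reads in each *Eef1g*-cKO library would amount to 6.94 FPKM, above the control mean of 6.26 FPKM, so no fold can be given. DESeq2 on the recovered reads gave it no adjusted p, and edgeR left it out for its low count.

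*Pkm*, whose splice forms make the pyruvate kinases M1 and M2 (chromosome 9, 59656576 to 59679372), had 266 and 112 reads in control, or 41.3 and 31.1 FPKM. It had 11 and 13 reads in *Eef1g*-cKO, or 18.9 and 12.3 FPKM. Both *Eef1g*-cKO libraries were lower. The log2 fold change was −1.18 ± 0.32 (adjusted p = 0.0758 by limma). It passed in edgeR on the recovered reads at −1.21 (adjusted p = 0.0225), where 11.2% of 8056 genes fell and 8.75% rose, and where *Hk1* and *Aldoa* were the other calls among the 5 members it tested. DESeq2 on the same reads gave −1.21 without calling it (adjusted p = 0.115). The read ratio was 0.388 (exact 95% interval 0.246 to 0.587).

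None of the lactate dehydrogenase genes passed the test. *Ldhc* (chromosome 7, 46861263 to 46878147) had 63 and 14 reads in control against 7 and 14 in *Eef1g*-cKO, which per length and depth were 19.4 and 7.72 FPKM against 23.9 and 26.2 FPKM. Both *Eef1g*-cKO libraries were above both control libraries, and the gap between the control libraries was wider than the gap between the genotypes' nearest values. The log2 fold change of 0.96 ± 0.45 did not pass the test (adjusted p = 0.211). It was 1.58 without control replicate 1 and 0.35 without control replicate 2, and the interval of the read ratio of 1.67 ran from 0.977 to 2.73. *Ldha* (chromosome 7, 46842274 to 46855627), which lies next to it, had only 6 and 7 reads in control against 1 and 0 in *Eef1g*-cKO. At 1.25 and 2.62 FPKM against 2.31 and 0 FPKM its groups overlapped, and no change was detectable at this depth (log2 fold change −0.65 ± 0.73, adjusted p = 0.579). *Ldhb*, the heart-type subunit, had 86 and 15 reads in control against 6 and 1 in *Eef1g*-cKO, and its log2 fold change of −1.02 ± 1.02 did not pass either (adjusted p = 0.355).

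Among reads of *Ldha* and *Ldhc* together, *Ldhc* made up 91.3% (63 of 69, exact 95% interval 82.0 to 96.7%) and 66.7% (14 of 21, 43.0 to 85.4%) in control. In *Eef1g*-cKO it made up 87.5% (7 of 8, 47.3 to 99.7%) and 100% (14 of 14, 76.8 to 100%). The log2 ratio of *Ldhc* over *Ldha*, on FPKM + 1, was 3.18 and 1.27 in control against 2.91 and 4.77 in *Eef1g*-cKO. These groups overlapped, and their means differed by 1.61 (two-sided exact permutation test, p = 0.667, where 2 against 2 libraries cannot go below 0.333). *Ldhc* exceeded *Ldha* in all 4 libraries. *Ldhb* held 56.3% and 44.6% of the lactate dehydrogenase FPKM in control against 44.0% and 6.70% in *Eef1g*-cKO, and *Ldhc* held 41.1%, 41.4%, 51.1% and 93.3% in the same order. Of the coding windows, 57.9% were repeated elsewhere for *Ldhb*, 64.1% for *Ldha* and 0% for *Ldhc*, so reads may have been dropped unequally from these genes and the shares are uncertain between them. The counterpart for phosphoglycerate kinase, *Pgk2* against *Pgk1*, was not analysed here.

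**Figure D3:**
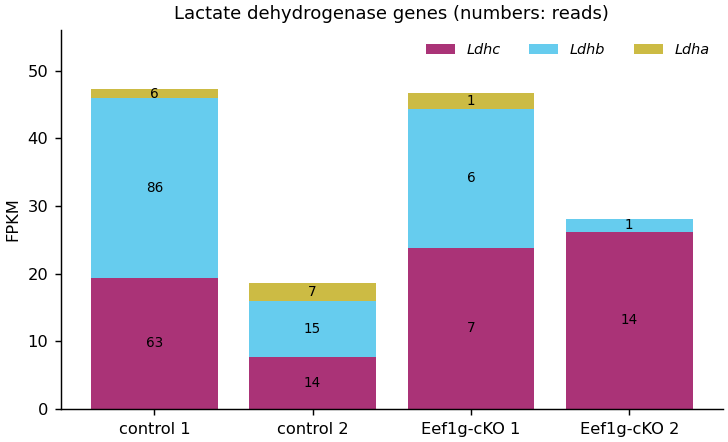
Summed FPKM of the lactate dehydrogenase genes *Ldhc*, *Ldhb* and *Ldha* (stacked, vertical axis) in each of the 4 libraries, with the number of reads printed in each block. *Ldhc* is the largest block in both *Eef1g*-cKO libraries and rests there on 7 and 14 reads.

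Of 6 other testis forms of pathway enzymes, 3 had a row, and limma called none of them at the adjusted threshold. By unadjusted p 1 fell, *Eno4*, and edgeR called 0 of the 2 it tested. *Pdha2*, the retrogene of the X-linked pyruvate dehydrogenase subunit *Pdha1*, had 31.0 and 27.3 FPKM in control against 34.2 and 25.0 FPKM in *Eef1g*-cKO, which overlapped (log2 fold change 0.01 ± 0.27, adjusted p = 0.990). *Eno4*, a sperm enolase, had 32 and 19 reads in control against 1 in each *Eef1g*-cKO library (log2 fold change −1.42, adjusted p = 0.114, unadjusted p = 0.0263). *Ldhal6b*, a testis lactate dehydrogenase-like gene, had 7, 6, 1 and 0 reads in the order control then *Eef1g*-cKO.

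The rest of the pathway was read from wider lists. Of 19 other glycolysis enzymes, 11 had a row and 10 were tested, of which 2 fell (*Hk2* and *Gpi1*) and 0 rose, with a median log2 fold change of −1.12. By unadjusted p 3 fell and 0 rose, and edgeR gave 3 and 0. *Slc16a1*, a monocarboxylate transporter that carries lactate and pyruvate, rose from 23.2 and 24.3 FPKM to 52.4 and 56.4 FPKM (log2 fold change 1.16 ± 0.23, adjusted p = 0.0420), and *Bsg*, basigin, which brings it to the plasma membrane, rose from 342 and 351 FPKM to 795 and 765 FPKM (1.17 ± 0.20, adjusted p = 0.0356). These were 2 of the 7 transport genes tested, and none fell. *Slc2a1*, a glucose transporter, was at 11.3 and 14.9 FPKM in control against 20.8 and 19.1 FPKM in *Eef1g*-cKO without passing (adjusted p = 0.247). Leaving out any single library except *Eef1g*-cKO replicate 1 ended the call of *Slc16a1*, and leaving out any of the 4 ended that of *Bsg*, with log2 fold changes of 1.11 to 1.21 and of 1.14 to 1.20.

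**Figure D4:**
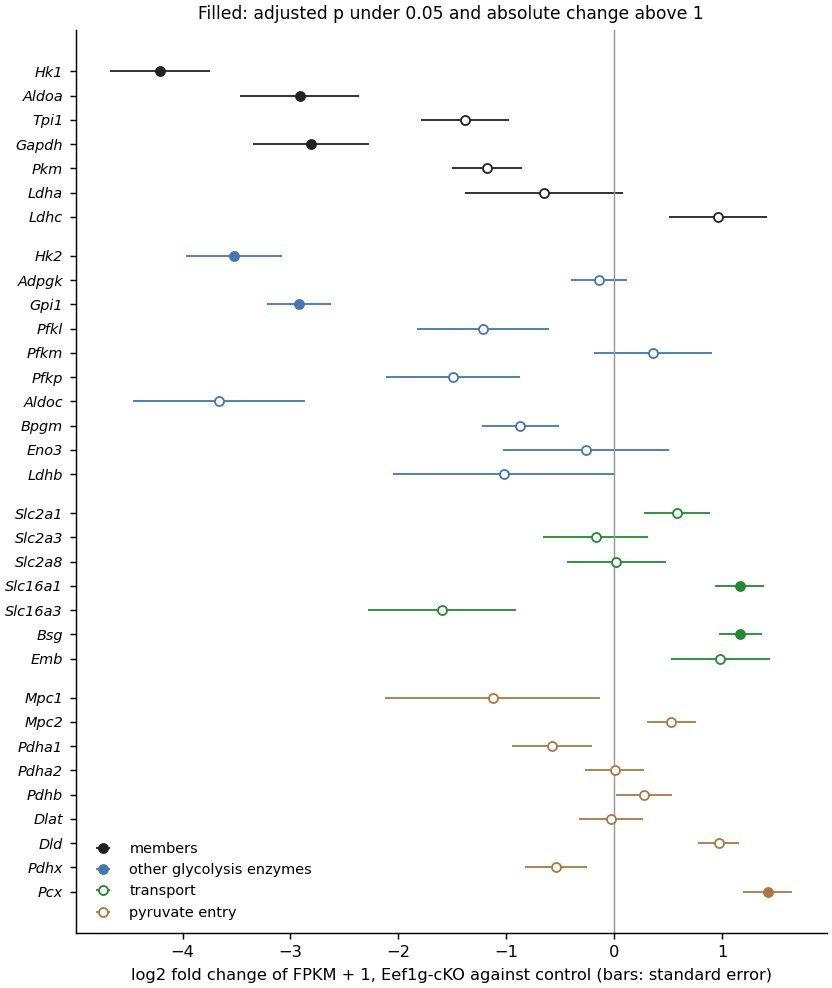
Log2 fold change of FPKM + 1, *Eef1g*-cKO against control (horizontal axis, bars give the standard error), for the 7 members, 10 other glycolysis enzymes, 7 transport genes and 9 genes of pyruvate entry, which include *Pdha2*. *Hk1* and *Gapdh* had 0 reads in *Eef1g*-cKO, so their fitted positions depend on the 1 FPKM added. Filled points passed the adjusted threshold with an absolute change above 1; the hexokinase genes lie farthest to the left with *Aldoc*, and *Slc16a1*, *Bsg* and *Pcx* are the filled points to the right of 0.

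Among the 8 genes that take pyruvate into mitochondrial metabolism, *Pcx*, pyruvate carboxylase, rose from 47.2 and 63.8 FPKM to 148 and 149 FPKM (log2 fold change 1.42 ± 0.23, adjusted p = 0.0338), and none fell. *Dld*, the shared dehydrogenase subunit of the pyruvate and oxoglutarate dehydrogenase complexes, was just under the fold limit in limma (0.97 ± 0.19, adjusted p = 0.0449), and edgeR called both it (1.06, adjusted p = 0.0018) and *Pcx* higher. The median of the 8 was 0.12. Of 16 citrate cycle genes, all tested, *Mdh2*, mitochondrial malate dehydrogenase, fell from 516 and 619 FPKM to 160 and 159 FPKM (−1.82 ± 0.20, adjusted p = 0.0225), none rose, and the median was 0.02. Of 8 pentose phosphate genes and 6 regulators of the pathway tested, limma called 0 at the adjusted threshold. By unadjusted p it called 2 pentose phosphate genes lower and no regulator, and edgeR called 1 and 0. *Taldo1*, transaldolase of the pentose phosphate pathway, was nearest in limma, with 474 and 550 reads in control against 20 and 19 in *Eef1g*-cKO (log2 fold change −2.07, adjusted p = 0.0501). It was the edgeR call (−2.11, adjusted p = 0.00032), and DESeq2 also called it lower (−2.11, adjusted p = 0.000111).

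The base composition of the members was uneven. The 6 somatic members had 65.4 to 70.8% G or C at the third codon position, above the median of 60.6% over the table, and *Ldhc* had 51.8%. The correction below used GC content of the whole coding sequence, with a median of 53.1% over the table. By that measure *Ldha* (51.6%) and *Ldhc* (48.2%) lay below the median, and the other members were at 54.6 to 57.0%. With each library's trend along GC content removed, *Hk1* (adjusted p = 0.0164), *Aldoa* (adjusted p = 0.0492) and *Gapdh* (adjusted p = 0.0475) were called lower again, *Aldoa* with a log2 fold change of −2.38. *Pkm* was then at −0.66 (adjusted p = 0.238) and the members' median at −0.88, while the all-gene median moved to 0.02 and the split of all genes to 543 higher and 314 lower. With the replicate number as a block in the same fit, *Gapdh* missed the threshold (adjusted p = 0.0504).

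The genes with the pattern most like that of *Ldhc* over the 4 libraries, by Euclidean distance of log2(FPKM + 1) centred on the gene mean among the 7080 genes averaging 5 FPKM or more, were *5730455P16Rik* (0.0745), the small nucleolar RNA *Snora65* (0.0777) and *Pofut2* (0.166). For *Ldha* they were *Kxd1* (0.0576), *Snrpc* (0.203) and *Emc9* (0.271), although *Ldha* itself rests on 14 reads.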

How the data were processed

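Libraries were grouped by their labels into control and *Eef1g*-cKO, 2 each. The authors deposited one table of FPKM, computed per kilobase of gene length and per 1000000 reads counted on genes, and of normalized counts, a signal equal to reads over a size factor. Each library's signal was divided by its smallest value above 0, taken to be a single read. The result was whole for 100% of values (tolerance 0.01) and was used as the reads. The authors' own fold changes and p-values in the table were not used. The submitters' processing notes name cutadapt, Bowtie, STAR, mm10 and hg38, and the paper names RiboMiner. The counter, its annotation and its handling of repeated reads are not given in the sources used here.

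FPKM are not counts, so log2(FPKM + 1) was tested with limma 3.58.1 (R 4.3.3, trended prior variance, two-sided, Benjamini-Hochberg over all genes) in the 10475 genes averaging 1 FPKM or more. A call needed an absolute log2 fold change above 1. edgeR 4.0.16 and DESeq2 1.42.0 on the recovered reads, other pseudocounts, filters and scalings, thinning, a GC correction, a replicate block and leaving out each library were alternatives. Models were tested on simulated data. Intervals of read ratios and shares are exact at 95% (Clopper-Pearson). Coding sequences were built from GENCODE M21 and GRCm38.p6 with Python 3.11.15, and members were matched by symbol. The table leaves out genes with fewer than 10 reads in all. The genes named were the members, genes of the wider lists that passed the adjusted threshold, and paralogs of members. *Taldo1*, *Dld*, *Adpgk*, *Slc2a1*, *Pdha2*, *Pfkl*, *Pfkm*, *Pfkp* and the marker genes were named after their values were seen. The members and lists were chosen with earlier results of these data known.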

Additional observations from a re-analysis of the deposited data

How the results depend on the processing

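The median log2 fold change of the members, −1.38, was −1.97 with a pseudocount of 0.1, −1.01 with a pseudocount of 5 and −0.88 with the GC trend removed, with or without a replicate block, and ran from −1.51 to −1.38 when a library was left out. The 3 adjusted calls became 2 with no filter on low values (*Aldoa* lost), with a filter of 5 FPKM (5 members tested), with DESeq2 and with GC removal plus the replicate block (*Gapdh* lost in both), 1 with a pseudocount of 0.1 and 0 with an untrended prior variance or after thinning to the shallowest library, settings under which 29 higher and 47 lower, 0 and 0 genes of all were called by limma (793 higher and 1811 lower, and 711 higher and 1225 lower, by unadjusted p in the latter settings). Over all genes, limma called 373 of 11598 lower with no filter and 576 of 7080 with a filter of 5 FPKM. DESeq2 called 451 of 11598 lower, and GC removal with the block 421 of 10125. Leaving out a library leaves 1 library in a genotype. Counts of calls from those fits, given above for the control replicates only, are therefore not comparable with those of the main fit. The same holds for the calls of *Slc16a1* and *Bsg* in those fits. By unadjusted p the 5 calls became 4 with a pseudocount of 5, a filter of 5 FPKM and centring on library medians. These called 1001 of 10475, 1064 of 7080 and 1346 of 10475 genes lower, in that order. The 5 calls became 3 with edgeR, DESeq2, thinning, GC removal and GC removal with the replicate block. The settings that left 3 calls gave 1251 of 8056, 958 of 11598, 1225 of 10318, 1057 of 10125 and 1109 of 10125 genes lower, in that order. *Ldha* reversed to 0.21 without *Eef1g*-cKO replicate 2. Libraries of the same replicate number did not deviate together (correlation of deviations −0.0080), so the numbers were not taken to pair them. With a replicate block 4 members were called, *Pkm* added (adjusted p = 0.0488), and 424 genes rose and 822 fell instead of 301 and 521. The difference in the *Ldhc* over *Ldha* ratio kept its sign under all 6 alternatives run (0.66 to 2.57). The 4 libraries and the 5 to 8 reads of a median gene in *Eef1g*-cKO limit all of these values, and the cause of each shift was not tested.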
